A study of Homo sapiens with 4 samples.

Results

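Open chromatin was examined at 35 interferon response genes in HCT116, an established human colorectal carcinoma cell line. The members were fixed by name as interferon-induced genes, sensors of viral RNA and interferon regulatory factors, and all 35 were matched among 19974 protein-coding genes of the RefSeq annotation of hg38. The listed name DDX58 is an older symbol of RIGI. The assay was ATAC-seq, which tags accessible DNA with the transposase Tn5, and 1 list of called peak intervals per library was deposited. The 2 FOXD2 libraries came from cells transduced with pSin lentivirus that carried full-length FOXD2, which encodes a forkhead transcription factor. The 2 control libraries came from cells transduced with the empty pSin vector. Both kinds of cells had been selected as stable lines with puromycin at 5 µg/ml, and 50000 cells were lysed per library. The labels give no interferon treatment and no infection other than the lentivirus in either group, and do not say whether replicates were grown separately, so their spread may be technical only.

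Interferons are secreted by infected cells and act through receptors and JAK kinases on STAT proteins. A complex of STAT proteins and IRF9 binds the interferon-stimulated response element (ISRE), and STAT dimers bind the gamma-activated site (GAS). The genes switched on in this way encode RNA sensors, nucleases, membrane proteins and signalling factors that restrict viruses, and the cytosolic sensors RIG-I and MDA5 in turn feed interferon production through IRF3 and IRF7.

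The lists held 82739 and 64675 intervals on chromosomes 1 to 22 and X in FOXD2 replicates 1 and 2, against 77752 and 72796 in control replicates 1 and 2. Read depth is unknown, and FOXD2 replicate 2 had the shortest list. Each interval carries the authors' −log10 q at its summit, the negative logarithm of the false discovery rate, which was at least 2.00 to 2.03 in every list and is larger for a stronger peak. Of 12 markers of colon epithelium, 10 were open at the gene end in all 4 libraries, with KRT20 and VIL1 open in some. Of 8 leukocyte markers 0 were open in all 4 and 7 in none, of 7 fibroblast markers 2 were open in all 4, and of 5 endothelial markers 0 were, with 3 open in some.

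Most interferon response genes already had an accessible promoter in control cells. A gene was called open where an interval lay within 1000 bp of its 5′ end. For 10 members (IRF2, IRF3, IRF7, OAS2, OASL, IFIT2, IFITM2, MX2, GBP2 and USP18) the tables used here give no strand, and an interval within 1000 bp of either gene end was counted. Of the 35 members, 24 were open in both FOXD2 libraries, against 65.5% of all protein-coding genes, and 23 (65.7%) in both controls, against 67.3% of all protein-coding genes. In all 4 libraries 22 members (62.9%) were open, against 64.2% of all genes, so the share of open members was close to that of genes at large. The 9 members open in no library were OAS1, IFITM1, MX2, BST2, IFI44, IFI44L, XAF1, GBP1 and CXCL10. The remaining 4, OAS2, IFIT1, IFI27 and GBP2, were open in some libraries.

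**Figure D1:**
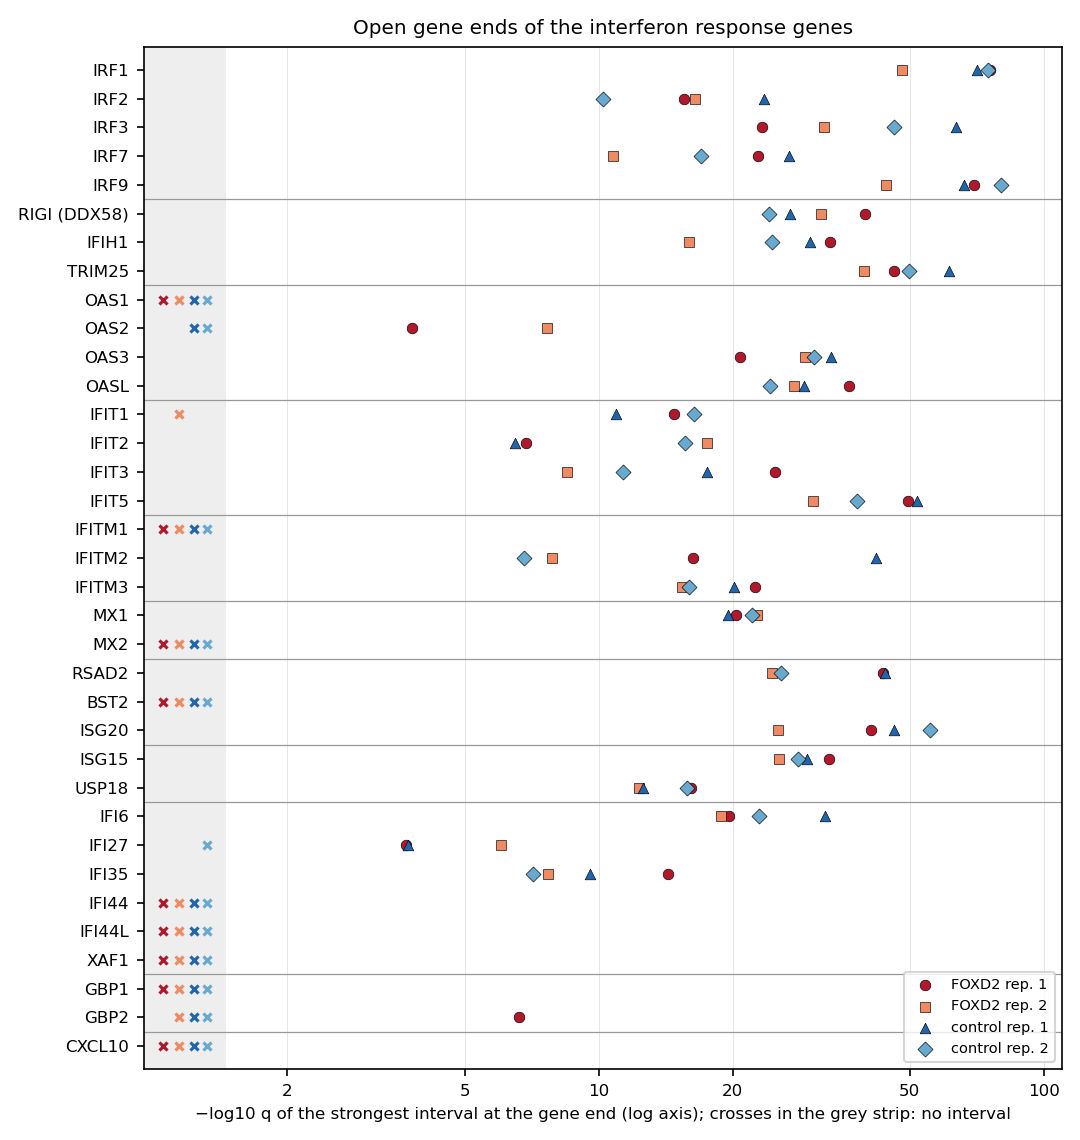
The −log10 q (log axis) of the strongest interval at the gene end is plotted for each of the 35 members, grouped by role, with 1 symbol per library and a cross in the grey strip where a library had no interval. All 5 interferon regulatory factors have 4 symbols, with IRF1 and IRF9 farthest to the right, and 9 members have 4 crosses.

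The regulatory factors, sensors and ISG15 system were open throughout, where 64.2% of all protein-coding genes were open in all 4 libraries. The groups are small, and the shares by role were not tested. All 5 interferon regulatory factors, all 3 sensors and partners and both genes of the ISG15 system were open in all 4 libraries, as were 2 of 4 OAS genes, 3 of 4 IFIT genes, 2 of 3 IFITM genes and 1 of 2 MX genes. Of the other groups, 2 of 3 further effectors (RSAD2 and ISG20, not BST2), 2 of 6 further induced genes (IFI6 and IFI35) and 0 of 2 guanylate-binding protein genes were open in all 4, and CXCL10 was open in 0 libraries.

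Promoter CpG content is given beside the open state as a description, without a test. RefSeq promoter windows of 300 bases, from 250 before to 50 after the start, were at hand for 25 members and 15812 protein-coding genes (GRCh38.p14). The observed over expected CpG ratio had a median of 0.377 in the members, against 0.763 in all promoters. It ranged from 0.265 to 1.06 (median 0.701) in the 15 members open in all 4 libraries and from 0 to 0.290 (median 0.140) in the 8 open in none. All 9 members with a ratio of 0.5 or more were open in all 4 libraries, among them RSAD2 (1.06), RIGI (1.02), TRIM25 (0.946), IFIT5 (0.945) and IRF1 (0.890). Of all promoters, 72.5% between 0.5 and 0.75 and 89.8% at 0.75 and above were open in all 4 libraries. Of 6 members below 0.25 (IFI44L, IFI44, CXCL10, IFITM1, OAS1 and BST2) 0 were open, where 11.4% of all promoters below 0.25 were open in all 4 libraries. Between 0.25 and 0.5, 6 of 10 members were open in all 4 libraries (IFI6, IFIT3, IFITM3, IRF9, ISG20 and IFI35), against 28.8% of all promoters in that range.

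**Figure D2:**
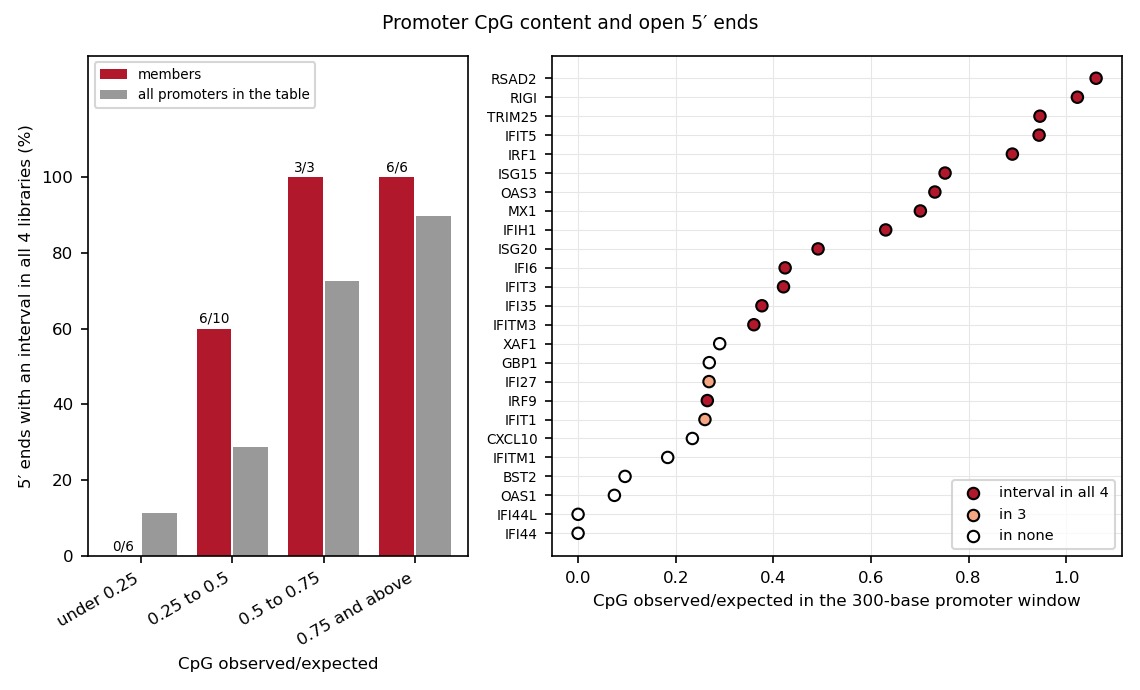
The left bars give the percentage of 5′ ends with an interval in all 4 libraries for members and for all promoters in the table, in 4 ranges of the observed over expected CpG ratio, with the number of members above each bar. The right points give the ratio of each of the 25 members with a promoter window, filled by the number of libraries with an interval; all points at 0.360 and above are open in all 4 libraries, and IRF9 is the only such point below 0.3.

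Most members with a promoter window held an ISRE core, open and closed ones included. The core was searched on both strands as GAAA, any 2 bases and GAAA, and was found in the promoters of 17 of 25 members (68.0%), against 3.17% of all 15812 promoters. It was present in 9 of 15 members open in all 4 libraries and in 6 of 8 open in none. The GAS motif TTCNNNGAA was found in 7 members (28%), against 6.98% of all promoters, and included IRF1 and IRF9. The AP-1 motif TGANTCA was found in IFIT5 and ISG20 (8%, against 5.76%), and the forkhead motif TGTTTAC in 0 of 25 members, against 2.62% of all promoters. Of 32 ISRE core matches, 15 lay under an interval in all 4 libraries, 4 in 3 libraries and 13 in none, and 4 overlapped a GAS match. Matches are descriptions of the letters in these windows.

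The promoters of 5 members are shown, first those whose state differed between libraries. IFIT1 and IFI27 were open in 3 libraries, and IFIH1, OAS3 and IFIT5 were open in all 4 with an ISRE core under the interval. In IFI27 no core lay under an interval in any library. Sequences are from RefSeq, read 5′ to 3′ on the strand of the gene, with the ISRE core of either strand in capitals. They are the plus strand of chr10:89392373-89392672 for IFIT1, chr14:94110486-94110785 for IFI27, chr12:112938224-112938523 for OAS3 and chr10:89414318-89414617 for IFIT5, and the minus strand of chr2:162318635-162318934 for IFIH1.
IFIT1: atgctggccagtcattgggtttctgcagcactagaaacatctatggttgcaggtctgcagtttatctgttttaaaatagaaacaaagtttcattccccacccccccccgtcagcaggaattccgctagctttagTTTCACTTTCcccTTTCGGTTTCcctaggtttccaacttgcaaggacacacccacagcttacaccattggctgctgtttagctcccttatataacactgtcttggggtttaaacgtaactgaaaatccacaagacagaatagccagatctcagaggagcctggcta
IFI27: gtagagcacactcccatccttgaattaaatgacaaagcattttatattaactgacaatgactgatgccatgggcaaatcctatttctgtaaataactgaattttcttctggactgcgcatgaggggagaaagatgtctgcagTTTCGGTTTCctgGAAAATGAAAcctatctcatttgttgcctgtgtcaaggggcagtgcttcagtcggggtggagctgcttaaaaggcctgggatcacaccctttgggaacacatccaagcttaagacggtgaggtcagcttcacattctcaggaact
IFIH1: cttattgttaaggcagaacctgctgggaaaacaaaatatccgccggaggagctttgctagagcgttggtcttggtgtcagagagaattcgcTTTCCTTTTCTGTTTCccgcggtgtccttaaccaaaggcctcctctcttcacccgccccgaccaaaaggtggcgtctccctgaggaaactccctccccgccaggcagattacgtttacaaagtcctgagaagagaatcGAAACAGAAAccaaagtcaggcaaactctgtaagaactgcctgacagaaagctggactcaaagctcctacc
OAS3: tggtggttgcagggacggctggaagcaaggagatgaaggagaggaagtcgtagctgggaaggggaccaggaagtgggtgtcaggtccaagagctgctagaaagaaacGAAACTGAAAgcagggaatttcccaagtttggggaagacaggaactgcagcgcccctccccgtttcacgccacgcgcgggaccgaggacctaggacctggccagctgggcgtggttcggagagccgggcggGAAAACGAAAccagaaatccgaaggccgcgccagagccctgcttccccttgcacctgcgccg
IFIT5: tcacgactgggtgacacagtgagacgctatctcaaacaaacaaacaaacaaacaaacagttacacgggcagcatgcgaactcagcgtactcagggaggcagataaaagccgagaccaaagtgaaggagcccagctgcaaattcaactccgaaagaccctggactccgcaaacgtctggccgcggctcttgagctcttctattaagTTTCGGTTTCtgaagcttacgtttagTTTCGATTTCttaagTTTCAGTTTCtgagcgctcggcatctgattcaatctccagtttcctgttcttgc

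The ISRE core nearest the 5′ end is shown for the 6 members that were closed in all 4 libraries and hold a core. Each has 5 flanking bases to either side in lower case and is written on the strand on which the GAAA repeats read forward.
IFITM1: tctgaGAAACTGAAAcgaca
BST2: aaactGAAACTGAAAaccta
IFI44: gaaagGAAACTGAAActcag
IFI44L: gtgagGAAAAAGAAAgttag
GBP1: aatatGAAACTGAAAgtact
CXCL10: ttttgGAAAGTGAAAcctaa
The cores of IFITM1, BST2, IFI44 and GBP1 had the same 10 letters, and none of the 6 lay under an interval in any library. In IFIT1, whose cores begin at −116 and −103 from the start, both cores lay under the interval of FOXD2 replicate 1 and of both controls. In IFIT3 both cores (at −156 and −122) lay outside the promoter interval of all 4 libraries.

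By −log10 q, IRF1 and IRF9 held the strongest gene ends of the list in every library, while the other interferon regulatory factors were weaker. IRF1, a transcription factor induced by interferon gamma (chromosome 5, 132481609 to 132490773), had a −log10 q of 76.0 and 48.0 at its 5′ end in FOXD2 replicates 1 and 2, against 70.9 and 74.9 in control replicates 1 and 2. IRF9, a DNA-binding subunit of the complex that binds the ISRE (chromosome 14, 24161265 to 24166565), had 69.9 and 44.3 in the FOXD2 libraries, against 66.1 and 80.2 in the controls. Both stood at or above the 92.3 percentile of every list. The IRF9 interval also overlapped RNF31. IRF3, which is activated by the RNA sensors (chromosome 19, 49659572 to 49665857), had 23.3 and 32.2 in the FOXD2 libraries, against 63.6 and 46.2 in the controls. These values mix 2 neighbouring regions, the outer one in replicate 1 of both groups and the inner one in replicate 2. In the inner region alone the groups overlapped, with 22.8 and 32.2 with FOXD2, against 29.3 and 46.2 in controls. In the outer region both FOXD2 values (23.3 and 17.5) lay below both control values (63.6 and 43.6). IRF7, the partner of IRF3 in interferon production, had 22.8 and 10.8 with FOXD2, against 26.7 and 17.0 in controls, and IRF2, a repressor of IRF1 targets, had 15.6 and 16.5, against 23.6 and 10.2. At IRF7 and IRF2 the groups overlapped, and the value of IRF2 in control replicate 1 came from another region of the same gene end than in the other 3 libraries.

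Of the 3 sensors and partners, TRIM25 had the highest −log10 q in every library. RIGI encodes RIG-I, a sensor of viral RNA ends (chromosome 9, 32455302 to 32526196), and had a −log10 q of 39.7 and 31.6 in the FOXD2 libraries, against 27.0 and 24.2 in the controls. IFIH1, which encodes MDA5, a sensor of long double-stranded RNA, had 33.2 and 16.0, against 29.9 and 24.5 in the controls. TRIM25, a ubiquitin ligase of the RIG-I pathway, had 46.2 and 39.4, against 61.2 and 49.8. At RIGI both FOXD2 values lay above both control values, at TRIM25 both lay below, and at IFIH1 the groups overlapped. On ranks within each library, described with the shared regions, TRIM25 overlapped, with all 4 libraries between the 79.0 and 83.5 percentiles. IFIH1 stood nearer the middle, at 66.9 and 44.9 with FOXD2, against 56.2 and 49.6 in controls. The IFIH1 interval also overlapped the neighbouring gene GCA. These −log10 q values grow with depth, which is unknown, so strength between libraries is taken up below on ranks.

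The OAS genes on chromosome 12 encode enzymes that make 2′-5′ oligoadenylates and so activate RNase L. They did not share a state although OAS1, OAS3 and OAS2 lie side by side from 112906962 to 113011723. OAS3 had a −log10 q of 20.8 and 29.1 in the FOXD2 libraries, against 33.3 and 30.5 in the controls, but its percentiles among shared regions overlapped, with 45.6 and 72.1 with FOXD2, against 60.6 and 59.5 in controls. OAS1 had no interval at its 5′ end in any library and 1 interval inside the gene, in FOXD2 replicate 1. OAS2 had 3.81 and 7.65 at its lower-coordinate end with FOXD2 and no interval in either control. OASL, an OAS-like protein without that enzyme activity in humans (121017761 to 121039246), had 36.5 and 27.5 at its higher-coordinate end with FOXD2, against 28.9 and 24.3 in the controls, and the groups overlapped.

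The IFIT genes encode proteins that bind foreign RNA, and 4 of them lie in a cluster on chromosome 10 from 89302046 to 89420997. The intervals at their ends also overlapped the annotated body of the neighbouring gene LIPA. IFIT5 was the strongest, with a −log10 q of 49.5 and 30.4 in the FOXD2 libraries, against 51.8 and 38.0 in the controls. IFIT3 had 25.0 and 8.48, against 17.5 and 11.4 in the controls, and IFIT2 had 6.88 and 17.5, against 6.47 and 15.6. IFIT1 had 14.8 in FOXD2 replicate 1 and no interval in FOXD2 replicate 2, against 11.0 and 16.4 in the controls. At all 4 genes the groups overlapped, and the replicates of a group differed more than the groups at IFIT2.

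The IFITM genes on chromosome 11 encode membrane proteins that block viral entry. IFITM3 had a −log10 q of 22.5 and 15.4 in the FOXD2 libraries, against 20.2 and 16.0 in the controls. IFITM2 had 16.3 and 7.86 with FOXD2, against 41.9 and 6.81 in controls; control replicate 1 reached its value through a neighbouring interval between IFITM2 and IFITM1 that began just inside the window. IFITM1 had 0 assigned regions. MX1, a dynamin-like GTPase against RNA viruses on chromosome 21, had 20.4 and 22.7 with FOXD2, against 19.6 and 22.2 in controls. Its percentiles among shared regions overlapped, with 44.8 and 61.3 with FOXD2, against 37.9 and 45.3 in controls. The neighbouring gene MX2, which acts against retroviruses, was closed at both ends within 1000 bp. With a window of 2000 bp it counted as open in all 4 libraries, through a region 1872 bp beyond its higher-coordinate end. A region 1465 bp from its lower-coordinate end had no interval in FOXD2 replicate 2.

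Of the further effectors, RSAD2, which encodes the nucleotide-modifying enzyme viperin, had a −log10 q of 43.7 and 24.5 with FOXD2, against 44.1 and 25.7 in controls, in an interval shared with CMPK2. ISG20, an exonuclease gene on chromosome 15, had 40.9 and 25.3, against 46.2 and 55.4 in controls. BST2, the gene of the virion tether tetherin on chromosome 19, had no interval within 1000 bp of its 5′ end but 1 inside the gene in all 4 libraries (17403054 to 17404224), with 17.6 and 13.8 with FOXD2, against 29.5 and 17.0 in controls. ISG15, a ubiquitin-like modifier, had 33.0 and 25.4, against 29.4 and 28.1, and USP18, the protease that removes ISG15, had 16.1 and 12.3, against 12.6 and 15.8. The groups overlapped at RSAD2, BST2, ISG15 and USP18. At ISG20 both FOXD2 values lay below both control values, but its percentiles overlapped, with 75.3 and 66.1 with FOXD2, against 73.8 and 82.7 in controls.

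Among the further induced genes, IFI6 had 19.7 and 18.9 with FOXD2, against 32.3 and 22.9 in controls, and IFI35 had 14.3 and 7.72, against 9.56 and 7.12. The groups overlapped at IFI35. At IFI6 both FOXD2 values lay below both control values, but its percentiles overlapped, with 43.0 and 53.0 with FOXD2, against 59.4 and 46.6 in controls. IFI27 was weak. It had 3.69 and 6.05 just inside the 5′ end with FOXD2, and control replicate 1 had 3.72 at a separate place in the same window. IFI44 and IFI44L, neighbours on chromosome 1, had no interval at the 5′ end, but IFI44L had a region 2390 bp before the gene in all 4 libraries (78617516 to 78618058), with 13.5 and 21.1 with FOXD2, against 27.4 and 25.8 in controls. The percentiles of that region overlapped, with 26.4 and 58.1 with FOXD2, against 52.5 and 52.1 in controls. GBP2, a guanylate-binding GTPase gene, had 6.64 in FOXD2 replicate 1 alone, and GBP1 only an interval 8181 bp away in the same library. XAF1, a pro-apoptotic factor gene, and CXCL10, the gene of a T cell-attracting chemokine, had 0 regions assigned within 100 kb. A region is assigned to the genes it overlaps or else to the nearest, so intervals belonging to other genes may lie near both. With both gene ends counted, XAF1 had an interval within 1000 bp in 1 library.

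Regions were then compared between the groups by presence. Overlapping intervals (1 bp or more) from the 4 lists were joined, which gave 122856 regions. Of these, 117 belonged to 32 of the 35 members, from 0 (IFITM1, XAF1 and CXCL10) to 14 (ISG20) per gene. Among the 117, 70 overlapped the body of a member and 47 had it as the nearest gene, at up to 63456 bp. Of the member regions 38.5% were in all 4 libraries, against 32.5% of all regions. Of 34 member regions at gene ends 27 were in all 4 libraries, against 18 of 83 elsewhere. The split by place was not counted over all regions, so nothing particular to the members is read from it. Over the 117 regions an interval was present at 87 (74.4%) and 66 (56.4%) in FOXD2 replicates 1 and 2. In control replicates 1 and 2 it was present at 73 (62.4%) and 70 (59.8%). Of all regions, 65.6% and 50.8% had an interval in FOXD2 replicates 1 and 2, against 61.7% and 56.8% in control replicates 1 and 2.

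Of the 117 member regions, 6 (5.13%) were present in both FOXD2 libraries and neither control, here called gained, where 3.89% of all regions were gained. There were 3 (2.56%) in both controls and neither FOXD2 library, here called lost, where 3.87% of all regions were lost. Both shares are near those of all regions. With 2 libraries against 2 the smallest exact two-sided p is 0.333, so presence was not tested. Leaving out a library relaxes both definitions. When FOXD2 replicate 1 was left out, 13 regions were gained and 9 lost, and when FOXD2 replicate 2 was left out, 22 and 5. Leaving out control replicate 1 gave 9 gained and 12 lost, and leaving out control replicate 2 gave 8 and 11, so that lost regions then outnumbered gained ones. The shares over all regions were not counted for these settings, so nothing is read from these counts.

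OASL held 2 of the gained regions, both inside the gene. The region at 121025658 to 121026191 had a −log10 q of 12.3 and 11.8 in FOXD2 replicates 1 and 2, and that at 121033352 to 121034299 had 11.9 and 12.0, with no interval in either control. IFIT3 had a gained region 9652.5 bp after its start (89337441 to 89337858), with 13.0 and 11.6. ISG20 had one at 88636005 to 88636370, with 10.1 and 9.77. Its midpoint lay inside the annotated gene, 555.5 bp from the lower-coordinate end, but before the 5′ end used here. These 4 stood between the 45.6 and 59.0 percentiles of the FOXD2 lists, in the middle of all called intervals.

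The other gained regions were weaker. The OAS2 region at the lower-coordinate end (112978363 to 112978979) had 3.81 and 7.65, and the IFI27 region (94110724 to 94111032) had 3.69 and 6.05. In both, FOXD2 replicate 1 stood at or below the 6.30 percentile of its list. With a minimum −log10 q of 5 or with lists of equal length these 2 regions were left in 1 FOXD2 library. OAS2 was the only member open at a gene end in both FOXD2 libraries and neither control, a state found at 0.431% of all genes. The reverse state held for 0 members and 0.831% of all genes.

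Lost regions lay at OAS2, RIGI and MX2. The OAS2 region inside the gene at 113007230 to 113007663 had 16.4 and 12.6 in control replicates 1 and 2 and no interval in either FOXD2 library. The RIGI region, 791.5 bp into the gene (32525188 to 32525621), had 7.34 and 6.16 in the controls and lay beside the promoter interval that all 4 libraries had. The MX2 region (41379057 to 41379831) had 4.07 and 3.69 and was in 0 libraries with a minimum −log10 q of 5. OAS2 thus had 1 region of each kind.

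**Figure D3:**
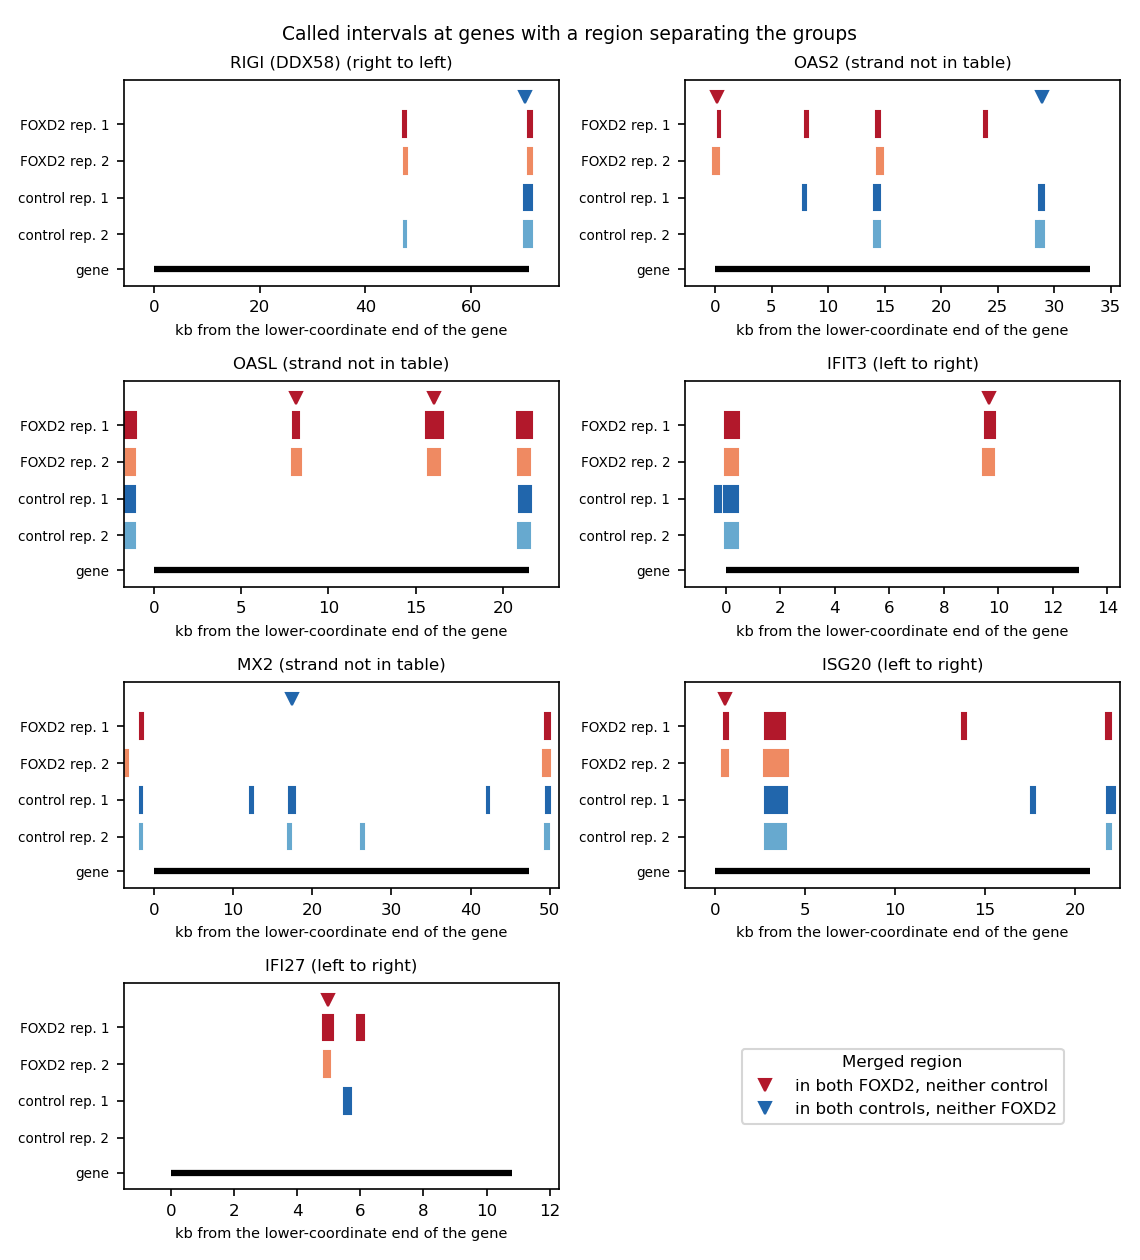
Called intervals of the 4 libraries are drawn along the 7 genes with a gained or lost region, in kb from the lower-coordinate end of each gene, with the gene body as a black bar; intervals shorter than a minimum width are widened to stay visible. Red triangles mark the 6 regions in both FOXD2 libraries and neither control, 2 of them inside OASL, and blue triangles the 3 in both controls and neither FOXD2 library.

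The strength of regions present in all 4 libraries was compared on ranks. Within each library the 39933 such regions were ranked by −log10 q, so that all libraries ranked the same set. Of these, 45 belonged to members. Of the 45, 9 (20.0%) had both FOXD2 ranks above both control ranks, against 19.0% of all 39933, and 5 (11.1%) ranked lower in both, against 19.6%. The median difference in mean percentile, FOXD2 minus control, was 2.31 for member regions (from −38.3 to 24.4) and −0.251 for all. By limma on normal scores of the ranks, 0 member regions and 0 of 39933 regions were higher (0%) and 0 were lower (0%) at an adjusted p under 0.05. At an unadjusted p under 0.05 there were 5 of 45 member regions, and 3523 (8.82%) of all regions. Since the groups hold 2 libraries each, the 9 and 5 regions became 21 and 15 when FOXD2 replicate 1 was left out, and 18 and 13 when FOXD2 replicate 2 was. They became 15 and 11 when control replicate 1 was left out, and 16 and 9 when control replicate 2 was. Leaving out a library relaxes the condition, and the shares over all 39933 regions were not counted for these settings, so nothing is read from these counts.

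Of the 5 regions lower with FOXD2, 3 belonged to interferon regulatory factors. The 5′ end regions of IRF1 and IRF9 were not among them, with percentile differences of 2.31 and 0.24. Regions in all 4 libraries numbered 2 at IRF1, 3 at IRF2, 2 at IRF3, 2 at IRF7 and 1 at IRF9. Of all shared regions 19.6% ranked lower in both FOXD2 libraries. The IRF2 region at the inner side of its higher-coordinate end (chromosome 4, 184472723 to 184474028) stood at percentiles 16.5 and 14.1 in FOXD2 replicates 1 and 2, against 46.0 and 61.3 in control replicates 1 and 2. Its difference in normal score was −1.12 (SE 0.305, limma adjusted p = 0.329, and 0.180 to 0.755 over the alternative settings). The next region of IRF2, across the same end (184474546 to 184475027), did not follow it, with 32.1 and 46.4 with FOXD2, against 33.4 and 16.6 in controls. The IRF3 region shared with BCL2L12 (49665469 to 49666154) stood at 50.9 and 49.3, against 84.9 and 74.1 in controls (difference −0.836, SE 0.304, limma adjusted p = 0.461). An IRF7 region near its lower-coordinate end (613485 to 614020) stood at 4.17 and 5.52, against 11.6 and 29.9 (−0.803, SE 0.332, limma adjusted p = 0.536). None of the 3 passed, although the groups did not overlap. The remaining 2 lay outside IFI6 and outside TRIM25.

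Of the regions higher with FOXD2, the RIGI promoter differed most in percentile (32525924 to 32526782). It stood at percentiles 74.2 and 75.5 in FOXD2 replicates 1 and 2, against 51.9 and 49.0 in control replicates 1 and 2, a difference in normal score of 0.659 (SE 0.290, limma adjusted p = 0.566, and 0.494 to 0.931 over the alternative settings). A region 1872 bp beyond MX2 stood at 39.6 and 19.1, against 11.0 and 2.73 (1.01, SE 0.364, limma adjusted p = 0.460), and the IFITM2 region inside the gene at 34.3 and 14.4, against 5.07 and 6.39 (0.847, SE 0.330, limma adjusted p = 0.506). These 3 did not pass either. The OASL region at its higher-coordinate end stood at 70.9 and 69.8, against 54.9 and 49.1 in controls (limma adjusted p = 0.695). OASL also had 2 gained regions, while at its other shared regions the groups overlapped. ISG15 stood at 66.6 and 66.3, against 55.6 and 55.7. The others were at the ends of IFITM3, IFI35 and USP18 and outside IFI6, where another region ranked lower.

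**Figure D4:**
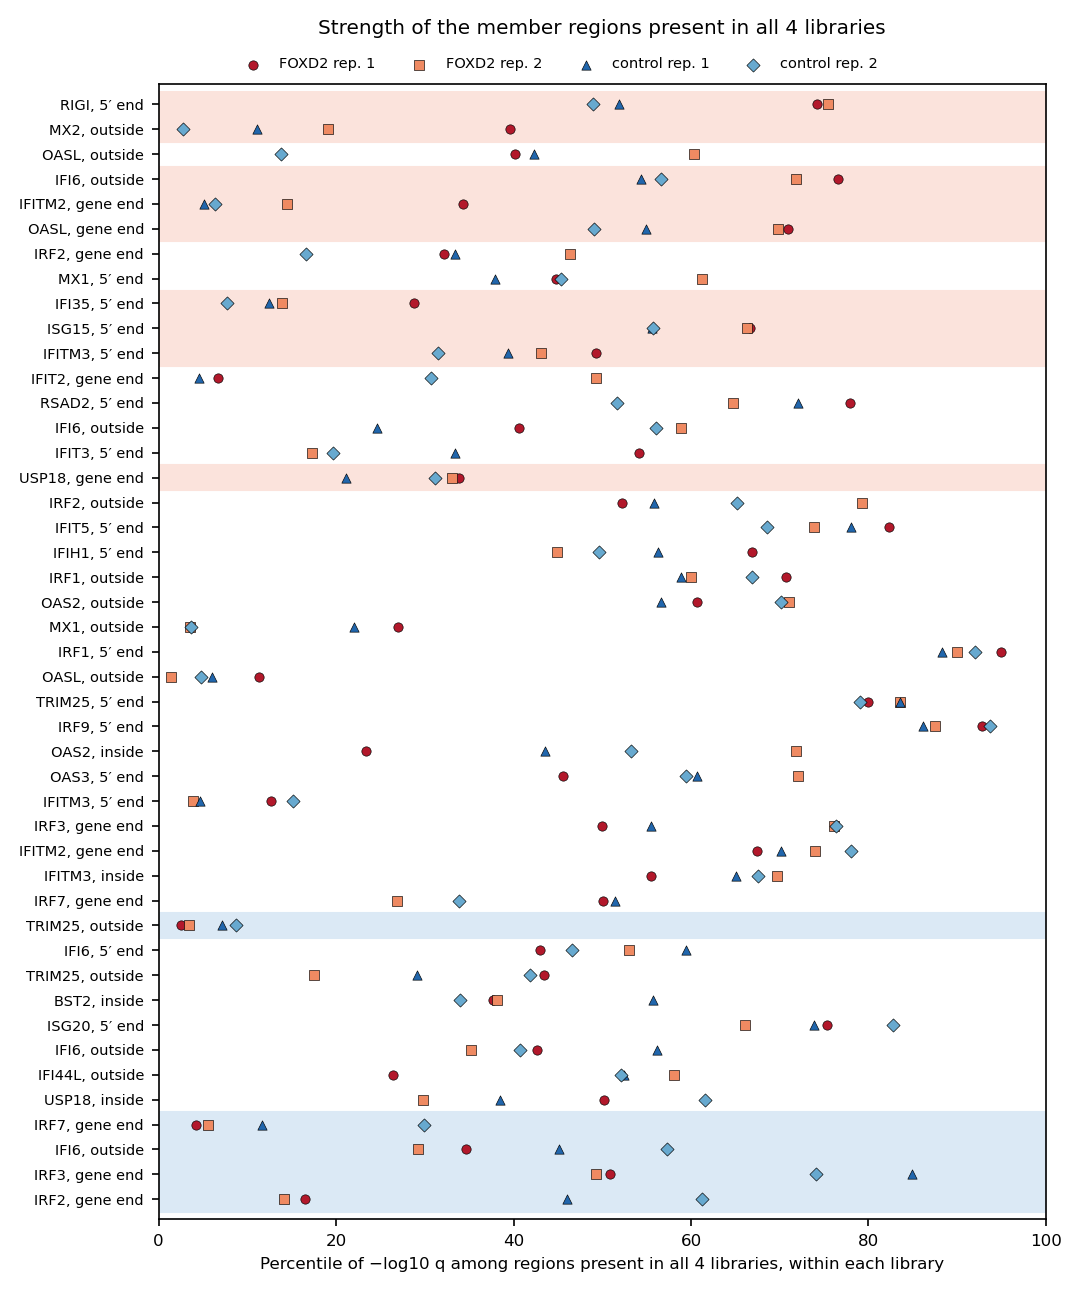
Each row is 1 of the 45 member regions present in all 4 libraries, and the symbols give its percentile of −log10 q among the 39933 regions of that kind within each library. Rows are ordered by the FOXD2 minus control difference; the 9 red rows have both FOXD2 libraries above both controls and the 5 blue rows have both below, with RIGI at the top and IRF2 at the bottom.

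Genes of the pathway that are not among the 35 were read in the same way. Of 24 signalling genes (receptors, JAK kinases, STATs, adaptors and inhibitors) 23 were open in all 4 libraries, against 64.2% of all genes, and IRF8, a factor of blood cells, in none. STAT2, a partner of IRF9, had a −log10 q of 85.8 and 59.4 with FOXD2, against 99.0 and 68.2 in controls, and the groups overlapped. The 24 genes had 8 gained and 8 lost of 152 regions, including 2 gained and 1 lost at the interferon gamma receptor gene IFNGR2. Of all 122856 regions, 3.89% were gained and 3.87% lost. Of 40 further interferon-induced genes 29 were open in all 4 libraries, where the share of all genes was 64.2%, and 8 in none (SAMD9L, SP110, TRIM22, IFI16, CXCL9, APOL1, APOL6 and GBP4), with 4 gained and 2 lost of 158 regions.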

How the data were processed

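Each library has 1 deposited peak list. The submitters' processing notes name hg38 and, without role or order, MACS2 2.2.7.1, Bowtie2 2.3.4.1, cutadapt 3.4, bedtools and Picard. Peak-calling settings and any Tn5 shift of read ends are not given in the sources used. The authors' −log10 p, −log10 q, fold enrichment (a ratio to local background) and whole-number score belong to single peaks within a list, and only −log10 q and fold were used here. No read counts were used, so depth is unknown and no precision per value can be given.

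Intervals on chromosomes 1 to 22 and X, all but 0.208% to 0.251% of each list, were merged across libraries where they overlapped by at least 1 bp. A region belonged to each protein-coding gene it overlapped, otherwise to the nearest within 100 kb. The 5′ end came from RefSeq promoter windows (GRCh38.p14). Without one, both gene ends were used, a departure from the planned 5′ end. Ranks of −log10 q among regions in all 4 libraries were turned into normal scores (values a standard normal distribution would have at those ranks) and compared by limma 3.58.1 in R 4.3.3 with Benjamini-Hochberg adjustment over 39933 regions. The p-values compare these 4 libraries. The fit was also run on simulated data with equal, independent noise in every region, which does not show what differences it could detect here. Python 3.11.15 and pandas 2.3.3 did the rest. The rule for named genes takes all members, in order of role, with values by library for gene ends, gained and lost regions and regions called by limma; of the 10 promoters that met the rule for printing, 5 are shown, those whose state differed between libraries first and then the others in role order. The shared regions whose groups did not overlap were added after their values were seen, as were the CpG summaries. The members, lists, motifs and CpG ranges were chosen with earlier results of these data known. Alternatives covered the peak threshold, list length, windows, overlap, distance, rank measure, a replicate block and leaving out each library.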

Additional observations from a re-analysis of the deposited data

How the results depend on the processing

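The 23 members open in both controls and the 22 open in all 4 libraries held with a minimum −log10 q of 5, with lists of equal length and with a window of 500 bp, and were 25 and 24 with a window of 2000 bp and 24 and 23 with both gene ends. With each library left out in turn they were 23 to 24 and 22 to 23. BST2 and MX2 entered with the window of 2000 bp, MX2 through the region beyond its higher-coordinate end. With a minimum −log10 q of 5 or lists of equal length the gained member regions numbered 5 and the lost 3, but the OAS2 and IFI27 gained regions and the MX2 lost region were no longer among them and others entered. With summit windows 4 were lost. Leaving out a library relaxes the definitions, and gave 8 to 22 gained and 5 to 12 lost member regions, and 15 to 21 ranking higher and 9 to 15 ranking lower with FOXD2. By limma 0 member regions passed in any setting. Leaving out a library gave 0 to 1 lower and 0 higher regions genome-wide, while the replicate block gave 49 higher and 8 lower. The deviations of same-numbered libraries from their group means had a correlation of −0.000891 over 39933 regions, so the numbers gave no sign of pairing. Depth is unknown, and sites under the calling threshold cannot appear in a list.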

Other observations

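Between the IFIT genes on chromosome 10, a further 4 regions overlapped LIPA but no IFIT gene, and 0 of them were in all 4 libraries. The region at 89351997 to 89352646 had a −log10 q of 9.63 and 10.2 in FOXD2 replicates 1 and 2, against 6.61 in control replicate 1 and no interval in control replicate 2. The region at 89327603 to 89327808, just before IFIT3, was in control replicate 1 alone (5.49). At the chemokine genes next to CXCL10, CXCL9 was closed in all 4 libraries, and CXCL11 had 6.64 and 11.3 at its end in FOXD2 replicates 1 and 2, against no interval in control replicate 1 and 6.13 in control replicate 2. Among further guanylate-binding protein genes, GBP3 was open in all 4 libraries, GBP5 in 3 and GBP4 in none.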
